A study of Mus musculus with 13 samples.

Results

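The TRAV4 family is a group of closely related variable (V) genes of the mouse T cell receptor α chain. This report describes the functional TCRα clonotypes that carry one of them, chosen by name: the V number directly after TRAV was 4, the name held no DV, and complementarity-determining region 3 (CDR3) read as an unbroken amino-acid sequence. A clonotype is 1 CDR3 nucleotide sequence with its V and joining (J) gene in 1 sample, and its counts are the sequencing counts the authors' pipeline gave it. Of 78521 functional clonotypes in 13 samples, 5159 met the rule. The other 73362, called all other clonotypes below, include 2703 of TRAV4-4-DV10, a relative named for use in both α and δ chains that the rule left out.

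The samples came from male Foxp3LSL/y Cd4creERT2 mice on a C57BL/6 background, in which the Foxp3 gene is silenced by a removable Thy1.1-STOP cassette and Cre in CD4-expressing cells becomes active after 4-hydroxytamoxifen (4-OHT). All mice received a single dose of 4-OHT on postnatal day 14, so every group carried the same alleles and the same treatment, and there was no untreated group. Regulatory T (Treg) cells with restored Foxp3 (TCRβ+CD4+GFP+Thy1.1-) were sorted from spleen cells pooled with lymph node cells. There were 2 samples at 1.5 months after the dose, 4 at 3 months, 2 at 5 months and 5 at 7 months. The labelled ages were 8 weeks, 3.5 months, 5.5 months and 7.5 months in this order. Cre was not restricted to Treg cells, and the tables hold receptor sequences only, so the sorted cell type was not checked here against its markers. Each library held 509818 to 936831 counts, of which 477052 to 882170 belonged to 4828 to 7998 functional clonotypes. TRAV4 clonotypes numbered 298 to 506 per sample, a share of 5.91% to 7.57% of functional clonotypes and 5.61% to 9.50% of functional counts. A count of 0 allowed a share of up to 0.000629% of functional counts in the shallowest library. Such limits, and the intervals below, cover counting error only.

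An α chain is made by joining 1 V gene to 1 J gene in the thymus. The V genes lie upstream of the J genes on the same chromosome, and a cell can join again, each time to a V gene farther 5′ and a J gene farther 3′ than before. Bases lost from the segment ends and bases added between them make up the CDR3, the loop that touches the centre of the peptide presented to the receptor. Mouse chromosome 14 carries the TRAV4 genes in repeated blocks, whose copies have names with D or N.

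In the GRCm38 annotation the 7 named members lie on the + strand of chromosome 14, all upstream of the J genes. In genome order they are TRAV4D-2 (ENSMUSG00000082819.2, chr14:52710913-52711402, annotated as a pseudogene), TRAV4D-3 (ENSMUSG00000093939.1, chr14:52899969-52900470), TRAV4D-4 (ENSMUSG00000096505.2, chr14:52990866-52991389), TRAV4N-3 (ENSMUSG00000095572.1, chr14:53210906-53211407), TRAV4N-4 (ENSMUSG00000093969.2, chr14:53302036-53302559), TRAV4-2 (ENSMUSG00000076826.5, chr14:53418349-53418873) and TRAV4-3 (ENSMUSG00000093966.2, chr14:53598828-53599410). TRAV4-4-DV10 follows at chr14:53683647-53684177. The annotated transcripts of TRAV4D-4 and TRAV4N-4 were identical in sequence, and so were those of TRAV4D-3 and TRAV4N-3. Over their last 331 bases, the length of the shortest annotated transcript among them, TRAV4-4-DV10 differed from TRAV4D-4 at 8 bases and TRAV4-3 from TRAV4D-3 at 8. The germline V ends that enter the CDR3 are shown here because they set how most TRAV4 CDR3s begin. The first reads C-A-A-E and the second, of TRAV4-2, reads C-A-V-E.
TRAV4D-3, TRAV4D-4, TRAV4N-3, TRAV4N-4 and TRAV4-3: tgtgctgctgagg
TRAV4-2: tgtgctgttgagg
TRAV4D-2: tgcgctgctgagg

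The clonotypes below carry the results on shared and abundant sequences. Each line gives the CDR3 in amino acids (for the CAAG form with TRAJ12, by its first 4 residues) and then the nucleotide sequence found for it in the most samples (of tied forms, the one with more counts), with bases between the deposited V and J ends in capitals. The TRAJ12 germline up to its conserved phenylalanine stands last for comparison.
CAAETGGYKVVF: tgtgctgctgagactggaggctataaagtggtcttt
CAAG form with TRAJ12: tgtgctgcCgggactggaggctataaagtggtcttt
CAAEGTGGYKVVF: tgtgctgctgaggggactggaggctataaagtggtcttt
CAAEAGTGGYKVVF: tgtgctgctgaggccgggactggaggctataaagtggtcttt
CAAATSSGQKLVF: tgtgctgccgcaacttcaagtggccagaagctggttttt
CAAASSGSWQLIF: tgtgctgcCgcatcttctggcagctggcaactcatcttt
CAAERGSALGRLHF: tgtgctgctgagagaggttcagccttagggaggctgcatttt
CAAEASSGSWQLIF: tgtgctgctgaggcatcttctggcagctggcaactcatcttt
TRAJ12: gggactggaggctataaagtggtcttt

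TRAV4D-4 was the main name in the family. It was given to 3039 clonotypes (58.9% of the members) and made up 53.4% to 64.1% of TRAV4 clonotypes in each sample. TRAV4-3 followed with 735 clonotypes, at 14.1% ± 3.26 of TRAV4 clonotypes (SD, n = 13), and TRAV4D-3 with 637, at 12.3% ± 2.00. These shares of TRAV4-3 and TRAV4D-3 overlapped. TRAV4-2 had 444 clonotypes (8.69% ± 1.85), TRAV4N-4 252 (5.01% ± 2.07), TRAV4N-3 39 and TRAV4D-2 13. The pseudogene name TRAV4D-2 appeared in 8 of 13 samples with at most 4 clonotypes. The names should be read with care. Of 748 TRAV4 combinations of CDR3 nucleotide sequence and J gene found in 2 or more samples, 324 (43.3%) carried 2 or more member names. Of all 3939 distinct combinations, 334 (8.48%) were also listed under TRAV4-4-DV10.

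The germline ends marked the CDR3s. The first 4 residues were CAAE in 2415 TRAV4 clonotypes (46.8%), against 2.21% of all other clonotypes. CAAG (8.01%), CAAD (6.49%) and CAAA (4.61%) came next in TRAV4. The other clonotypes include those of TRAV4-4-DV10, whose germline V end is the same as that of TRAV4D-4. The CAVE start was found in 179 clonotypes, of which 176 were named TRAV4-2. TRAV4-2 had alanine as the third residue in 10.8% of clonotypes, against 93.4% of TRAV4D-4 and 94.8% of TRAV4D-3 clonotypes.

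TRAV4N-4 clonotypes carried many more counts than their number would give. The name was on 4.88% of TRAV4 clonotypes and on 20.4% of TRAV4 counts. The other N name, TRAV4N-3, was on 0.756% of TRAV4 clonotypes and 2.59% of TRAV4 counts. Over all samples its 39 clonotypes had a mean of 389.1 counts, against 83.9 for TRAV4D-3, whose annotated transcript is identical. No test was made of this pair. Per sample, the mean clone size of TRAV4N-4 had a lowest value of 157, a median of 440.6 and a highest value of 1000.0 counts. For TRAV4D-4 the lowest was 61.3, the median 88.6 and the highest 156.7 counts, so the ranges did not overlap. TRAV4N-4 was the larger in 13 of 13 samples, by 2.14 ± 0.81 on the log2 scale (SD, n = 13; two-sided exact sign-flip permutation test, p = 2.44e-04, the smallest this test can give; a comparison chosen after the values were seen). The share of the name changed with clone size. TRAV4N-4 made up 0.141% of the 1419 TRAV4 clonotypes with 1 to 10 counts, 3.13% of the 2044 with 11 to 100 counts, 9.81% of the 1652 with 101 to 1000 counts and 54.5% of the 44 above 1000 counts. TRAV4D-4 made up 57.3%, 61.7%, 57.8% and 20.5% of the same bins. In 94 cases the same CDR3 and J was named TRAV4N-4 in 1 sample and TRAV4D-4 in another, and in 81 of these its share of counts was higher under TRAV4N-4. The annotated transcripts of both names are identical, as given above, so the files do not separate the genes. What part the naming of clonotypes has in this difference was not tested.

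**Figure D1:**
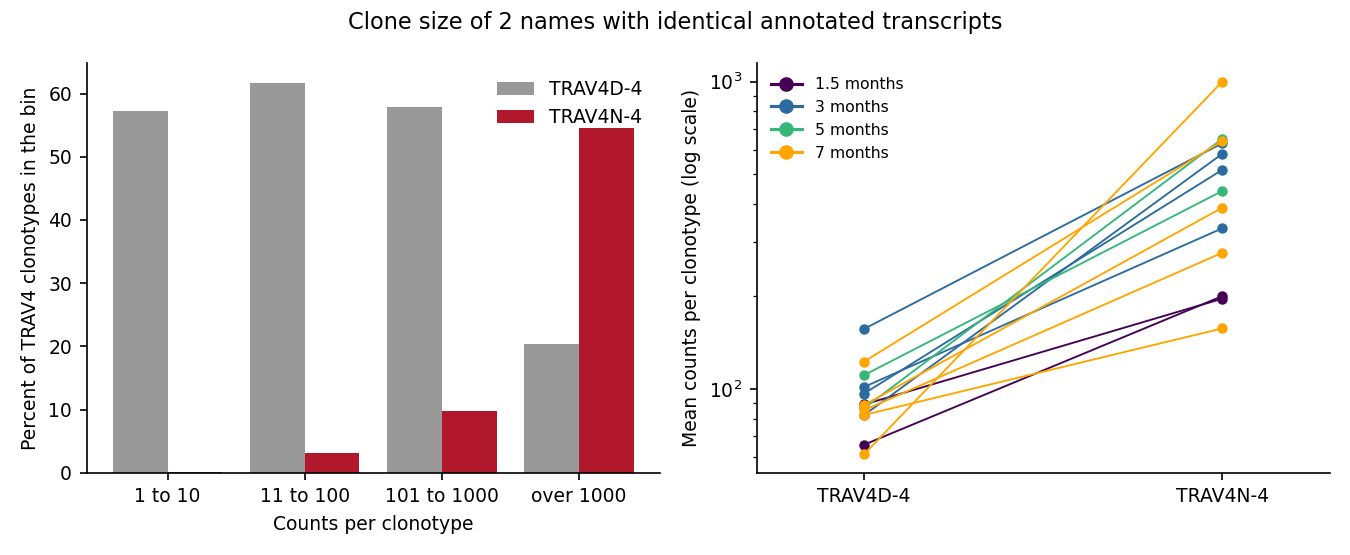
The left plot gives the percent of TRAV4 clonotypes named TRAV4D-4 (grey bars) or TRAV4N-4 (red bars) in bins of counts per clonotype, and the right plot gives the mean counts per clonotype (log axis) of both names, with a line for each of the 13 samples coloured by months after 4-OHT. The TRAV4N-4 bar grows from 0.141% to 54.5%, and every line on the right goes up.

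Across J genes, TRAV4 clonotypes leaned to the 3′ end of the J cluster. In each sample the number of TRAV4 clonotypes with each J gene was compared with that of all other clonotypes (edgeR quasi-likelihood test with the sample as a block, Benjamini-Hochberg adjusted p under 0.05). Of 43 J genes tested, 35 were called (81.4%), with 15 higher in TRAV4 (34.9%) and 20 lower (46.5%). Of the 13 J genes from TRAJ41 upward, those nearest the V genes, 13 were lower. Of the 16 from TRAJ23 downward, 12 were higher, 2 were lower and 2 were not called. The 14 between them gave 3 higher and 5 lower. Trimmed-mean scaling raised the log2 differences by a median of 0.18 against plain shares. Without it 12 were higher and 23 lower, and 32 of the 35 calls kept their direction and call. DESeq2 called 9 higher, and with TRAV4-4-DV10 counted as a member 11 were lower.

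TRAJ12 and TRAJ21 showed the clearest rise. TRAJ12 made up 5.90% to 10.4% of TRAV4 clonotypes per sample (median 7.97%) and 3.34% to 4.21% of all other clonotypes, a log2 difference of 1.25 ± 0.091 (SE). TRAJ21 made up 7.69% to 11.8% (median 9.45%) against 4.56% to 5.60%, a log2 difference of 1.07 ± 0.085. For both, every TRAV4 value lay above every value of the other clonotypes. TRAJ17 stood at a mean of 4.48% against 2.71% (log2 difference 0.91 ± 0.11), TRAJ22 at 5.80% against 3.89% (0.75 ± 0.099) and TRAJ9 at 4.45% against 2.90% (0.79 ± 0.11). These 3 were each higher in 12 of 13 samples, with ranges that overlapped. With TRAV4-4-DV10 counted as a member the differences were 0.12, 0.15 and 0.0084, and none of the 3 was called (edgeR, adjusted p = 0.334, 0.164 and 0.935).

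The 5 J genes with the smallest adjusted p among those lower in TRAV4 were TRAJ58, TRAJ57, TRAJ49, TRAJ48 and TRAJ7, each lower in 13 of 13 samples. TRAJ58 was found in 5 TRAV4 clonotypes and reached at most 0.513% in a sample, against 0.679% to 1.16% of all other clonotypes (log2 difference -2.97 ± 0.47). TRAJ57 stood at 0.444% ± 0.278 against 1.57% ± 0.139 (SD; log2 difference -1.62 ± 0.27, SE). TRAJ49 stood at 1.01% against 2.34% (-1.06 ± 0.19), and TRAJ48 at 0.499% against 1.60% (-1.42 ± 0.26). With TRAV4-4-DV10 counted as a member TRAJ49 turned to 0.32 and TRAJ48 was no longer called, at -0.061 (edgeR, adjusted p = 0.736). TRAJ7 was an exception to the position of the others. It lies at the 3′ end, and stood at 0.621% against 1.76% (-1.31 ± 0.24). Ranges that did not overlap between the sets were found for 12 of the 43 J genes (27.9%), 2 of them higher in TRAV4.

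Summed by region, 7.70% ± 1.04 of TRAV4 clonotypes used a J gene from TRAJ41 upward, against 19.6% ± 0.801 of all other clonotypes (SD, n = 13). The region from TRAJ23 downward held 61.9% ± 2.74 against 44.3% ± 1.04. The relative left out by the rule went the other way. TRAV4-4-DV10, which lies nearest the J genes among the TRAV4 names, had 48.0% ± 2.84 in the 5′ region and 10.9% ± 1.87 in the 3′ region. In a direct comparison of TRAV4 with TRAV4-4-DV10, added after the values were seen (edgeR as above on library totals), 31 of 35 J genes were called (88.6%), 14 higher in TRAV4 (40.0%) and 17 lower (48.6%). All 12 tested from TRAJ23 downward were higher in TRAV4 and all 11 tested from TRAJ41 upward were lower. TRAJ49 and TRAJ12 show the size of it. TRAJ49 stood at 6.20% ± 0.954 in TRAV4-4-DV10 and 1.01% in TRAV4, and TRAJ12 at 0.856% ± 0.700 and 7.81%.

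**Figure D2:**
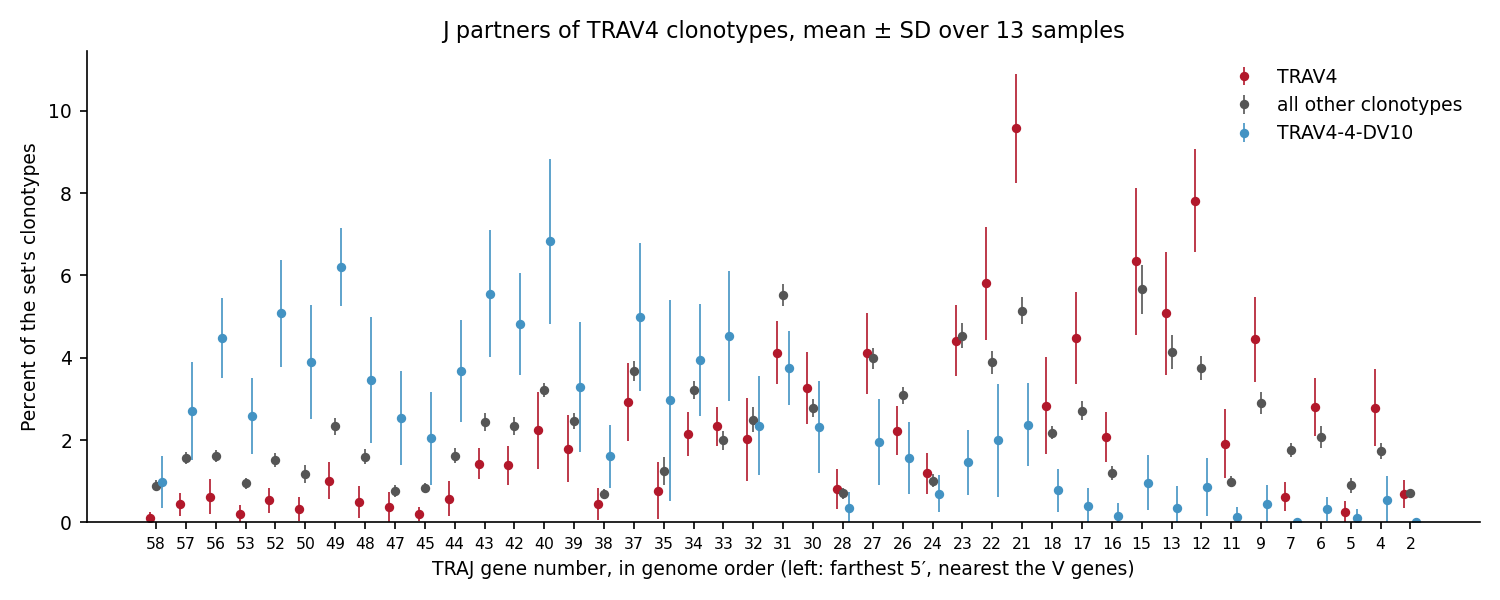
Points give the mean percent of clonotypes that used each TRAJ gene, with SD bars over 13 samples, for TRAV4 (red), all other clonotypes (grey) and TRAV4-4-DV10 (blue), with genes in genome order from 5′ on the left. The TRAV4 points lie under the grey ones for the 5′ genes and above them for TRAJ21 and TRAJ12, where they stand at 9.57% and 7.81%.

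The members themselves differed by name in the same measure. In the 5′ region the share was 4.53% ± 1.06 for TRAV4D-4, 6.65% ± 4.31 for TRAV4D-3, 1.61% ± 2.65 for TRAV4N-4, 7.77% ± 5.42 for TRAV4-2 and 24.0% ± 3.95 for TRAV4-3 (SD, n = 13). TRAV4-3, the member nearest the J genes, had 18.0% to 31.0% per sample and TRAV4D-4 had 2.98% to 6.03%, with no overlap. The difference was 19.5 percentage points ± 3.85, higher in 13 of 13 samples. In the 3′ region TRAV4-3 stood at 26.1% ± 5.33 and TRAV4-2 at 50.9% ± 6.26, against 70.5% ± 4.37 for TRAV4D-4. Both differences (-44.4 ± 8.38 and -19.5 ± 6.68 percentage points) held in 13 of 13 samples. Two-sided exact sign-flip permutation tests of 6 such differences, chosen after the values were seen, gave an adjusted p of 4.88e-04 for these 3. TRAV4D-3 differed from TRAV4D-4 by 2.11 ± 4.92 percentage points in the 5′ region and -4.34 ± 10.8 in the 3′ region, with adjusted p = 0.163 and 0.171 in the same exact tests. TRAV4-2 differed by 3.23 ± 6.01 in the 5′ region (adjusted p = 0.109, exact). TRAV4N-4, which shares its sequence with TRAV4D-4, was left out of these tests.

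**Figure D3:**
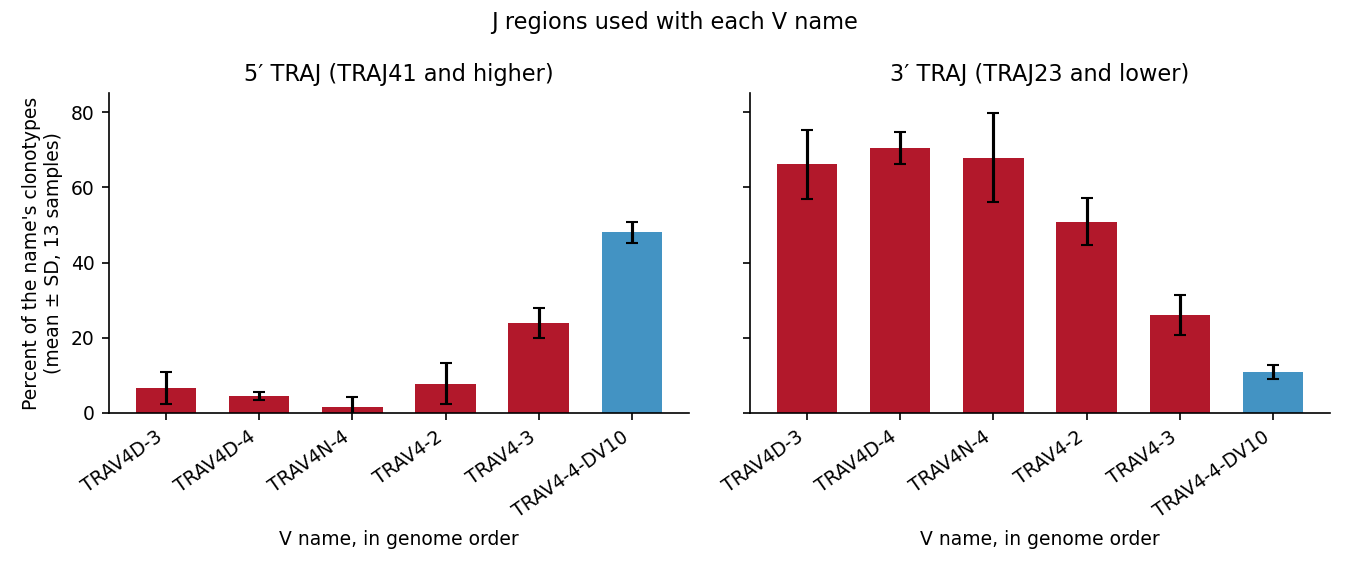
Bars give the mean percent of a name's clonotypes with a J gene in the 5′ region (left) or 3′ region (right), with SD bars over 13 samples, for 5 TRAV4 names (red) and TRAV4-4-DV10 (blue) in genome order. The 5′ share is 4.53% for TRAV4D-4, 24.0% for TRAV4-3 and 48.0% for TRAV4-4-DV10, and the 3′ share falls from 70.5% to 26.1% and 10.9%.

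Rearrangements whose CDR3 does not read through give no receptor chain, and they were compared in the same way. The files held 672 such TRAV4 clonotypes and 11151 others. In a test of the 11 J genes that passed the filter on low counts within them, none was called by edgeR, and 0 had an unadjusted p under 0.05. A model of both sets on library totals with a lower filter, chosen after the values were seen, called 4 of 43 J genes in the non-functional clonotypes (9.30%). TRAJ32 was higher in TRAV4 (log2 difference 0.63 ± 0.14, SE, adjusted p = 1.89e-04), while TRAJ4, TRAJ43 and TRAJ7 were lower with 3, 5 and 1 non-functional TRAV4 clonotypes. In the same model the difference between functional and non-functional rearrangements was called for 3 of 43 J genes (6.98%). TRAJ12 made up 7.87% of functional and 5.95% of non-functional TRAV4 clonotypes, and 3.74% and 4.90% of all other clonotypes. Its log2 difference between TRAV4 and the rest was 1.07 ± 0.090 (SE) in functional clonotypes and 0.26 ± 0.25 in non-functional ones, which differed by 0.81 ± 0.25 (edgeR, adjusted p = 0.0151). TRAJ4 was on 146 functional and 3 non-functional TRAV4 clonotypes, and its difference was larger by 2.68 ± 0.63 in the functional set (adjusted p = 6.14e-04). TRAJ32 went the other way, with 1.98% of functional and 24.4% of non-functional TRAV4 clonotypes against 2.51% and 15.8% of all other clonotypes (-0.97 ± 0.20, adjusted p = 7.20e-05). For TRAJ21 the difference was 0.53 ± 0.26 (adjusted p = 0.216). The 5′ region held 6.72% ± 3.52 of non-functional TRAV4 clonotypes (SD, n = 13), beside 7.70% of the functional ones. The other regions stood farther apart, with 51.9% ± 6.86 of non-functional and 30.4% ± 2.43 of functional TRAV4 clonotypes between the 5′ and 3′ regions, and 41.4% ± 6.58 and 61.9% ± 2.74 in the 3′ region. Of all other non-functional clonotypes, 15.5% ± 0.996 were in the 5′ region, 43.9% ± 2.60 between and 40.7% ± 2.54 in the 3′ region. TRAJ32, which lies between the regions, held 164 of the 672 non-functional TRAV4 clonotypes. Without it, 37.0% ± 9.96 of non-functional and 29.0% ± 2.09 of functional TRAV4 clonotypes lay between, and 54.3% ± 10.4 and 63.2% ± 2.41 in the 3′ region, where all other non-functional clonotypes stood at 48.1% ± 2.02. These shares by region are given with no test.

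TRAV4 junctions were shorter than those of the other clonotypes in the same samples. The mean CDR3 length, counted from the conserved cysteine to the phenylalanine, was 13.1 to 13.3 residues in TRAV4 and 13.5 to 13.6 in all other clonotypes, and the ranges did not overlap. The mean difference was -0.369 ± 0.0585 residues (SD, n = 13), with TRAV4 lower in 13 of 13 samples (two-sided exact sign-flip permutation test, adjusted p = 7.32e-04 over 6 measures). At 12 residues TRAV4 had 21.3% ± 1.73 of its clonotypes against 13.9% of the others, and at 15 residues 7.19% ± 1.35 against 14.1%. At 14 residues the shares were 30.3% in both sets.

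Fewer bases lay between the deposited V and J ends in TRAV4. These ends can take in bases that differ from the germline, so the values need not equal the bases added at the joint. For example, the 6 nucleotide forms of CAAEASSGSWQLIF differed at the joint, and each was listed with 0 bases between the ends. TRAV4 clonotypes had 1.97 ± 0.126 bases between the deposited V and J ends and all other clonotypes 2.17 ± 0.0492, a difference of -0.193 ± 0.115 that was negative in 13 of 13 samples (exact sign-flip permutation test, adjusted p = 7.32e-04). No base between these ends was found in 33.6% ± 2.03 of TRAV4 clonotypes and 30.7% ± 0.992 of the others. TRAV4 was higher in 12 of 13 samples, by 2.88 ± 2.02 percentage points (adjusted p = 9.77e-04, exact). Bases from the J gene numbered 26.6 ± 0.190 in TRAV4 and 26.9 ± 0.0593 in the others (difference -0.261 ± 0.209, lower in 11 of 13 samples, adjusted p = 0.00293, exact). The last difference missed the threshold when TRAV4-4-DV10 was counted as a member. All 13 germline V bases were kept in 41.8% of TRAV4 clonotypes.

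**Figure D4:**
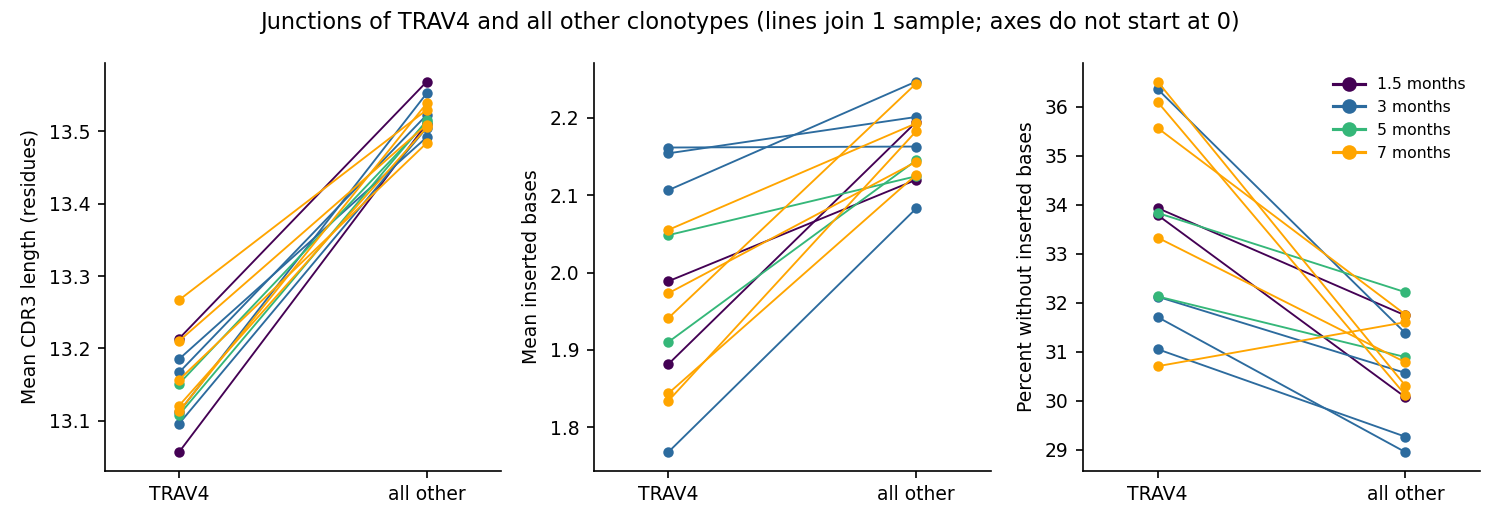
Lines join the value of TRAV4 clonotypes with that of all other clonotypes in the same sample for the mean CDR3 length in residues, the mean number of inserted bases and the percent without inserted bases, with 13 samples coloured by months after 4-OHT. Every line rises for length and inserted bases, and 12 of 13 fall for the percent without inserted bases.

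At CDR3 positions 5 to 7, the first past the 4 residues that the TRAV4 germline ends encode, the residues also differed. How far the V genes of all other clonotypes reach into these positions was not checked. Of 19 residues tested, 15 were called (78.9%), with 6 higher in TRAV4 (31.6%) and 9 lower (47.4%). Alanine took 12.3% ± 1.17 of these positions in TRAV4 and 7.71% ± 0.214 in all other clonotypes (SD, n = 13; log2 difference 0.87 ± 0.049, SE). Serine stood at 16.7% against 12.9% (0.57 ± 0.044) and glycine at 22.5% against 19.9% (0.38 ± 0.042). Glutamate stood at 1.04% ± 0.223 against 3.55% ± 0.144 (-1.57 ± 0.10), isoleucine at 0.344% against 0.950% (-1.24 ± 0.17) and arginine at 2.89% against 4.69% (-0.50 ± 0.073). The acidic and basic residues tested, D, E, R, K and H, were all lower in TRAV4, also on plain shares. On plain shares 4 residues were higher and 11 lower, and asparagine, called higher with scaling (0.16), stood at 15.1% against 15.6%. Alanine at position 5 made the largest part of its difference, at 24.8% against 12.3%. Glutamate also differed most at position 5, at 2.39% against 9.34%. It stood at 0.453% against 0.684% at position 6 and 0.280% against 0.639% at position 7.

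TRAV4 clones were somewhat larger than the others. The mean clone size was 114.8 ± 31.8 counts in TRAV4 and 97.7 ± 20.6 in all other clonotypes, a log2 ratio of 0.21 ± 0.24 (SD, n = 13) that was positive in 10 of 13 samples (exact sign-flip permutation test, adjusted p = 0.0111). Each CDR3 amino-acid sequence was encoded by 1.078 ± 0.0215 nucleotide clonotypes per sample in TRAV4 and by 1.064 ± 0.00839 in the others (adjusted p = 0.0212, exact). This difference changed sign, to -0.00329, when TRAV4-4-DV10 was counted as a member, and was 0.00925 and not called without DV genes in the rest (exact p = 0.0925). None of the 6 differences between TRAV4 and the rest was called as changed with time, with a smallest exact permutation p of 0.0618 among 18 comparisons.

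TRAV4 sequences recurred between samples. The samples held 3094 distinct TRAV4 CDR3 amino-acid sequences, of which 828 (26.8%) were found in 2 or more samples, against 23.4% of the 47820 distinct sequences of all other clonotypes. In 7 or more samples there were 43 (1.39%), against 0.970%. Within a sample, 47.0% to 58.9% of TRAV4 amino-acid sequences were also found in another sample (mean 52.5%), against 43.3% to 55.1% (mean 46.8%) of the others, and TRAV4 was higher in 12 of 13 samples. For nucleotide sequences the means were 38.0% and 31.9%, with TRAV4 higher in 13 of 13 samples. Sequences that recurred took 67.8% ± 6.14 of TRAV4 counts and 58.4% ± 5.59 of the counts of all other clonotypes. These shares are a description, since samples that share a sequence are counted for each other. Of the 43 sequences in 7 or more samples, 9 used TRAJ12, 7 TRAJ21, 5 TRAJ22 and 4 TRAJ9.

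The sequences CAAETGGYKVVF, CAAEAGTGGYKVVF and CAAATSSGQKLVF were found in all 13 samples. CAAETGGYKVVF took 0.0190% to 1.32% of functional counts, with a median of 0.151%. Its highest value was in 5 months replicate 1, and the other 12 samples had at most 0.522%. Its nucleotide form printed above was in 12 samples and held no base between V and J, and a form with 1 added base (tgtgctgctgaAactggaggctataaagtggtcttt) was in 5. The CAAG form with TRAJ12 was in 12 samples with a median of 0.182% and a highest value of 2.02%, in 7 months replicate 5. It was listed at 0 in 5 months replicate 2. Some of these sequences were also found under other V names. Under V names other than TRAV4 and TRAV4-4-DV10, the CAAG form and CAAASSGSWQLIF were found in 13 samples each, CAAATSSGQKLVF in 10, and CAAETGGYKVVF and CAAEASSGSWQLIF in 1 each. Under TRAV4-4-DV10, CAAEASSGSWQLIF was found in 2 samples, and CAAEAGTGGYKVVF, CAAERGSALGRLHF and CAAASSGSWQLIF in 1 each.

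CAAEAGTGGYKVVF ran from 0.0110% to 0.311% (median 0.0711%). Its cc after the germline V end lies inside the deposited segment ends and so is not counted as added. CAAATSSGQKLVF, with TRAJ16, kept to 0.00831% to 0.0649% (median 0.0444%). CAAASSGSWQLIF (TRAJ22) was in 12 samples at up to 0.0926%, and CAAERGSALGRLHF (TRAJ18) in 12 at up to 0.0720%. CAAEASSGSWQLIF (TRAJ22) and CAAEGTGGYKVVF (TRAJ12) were each in 11 samples, at up to 0.245% and 0.139%. For 6 of these 8 sequences the most widespread nucleotide form had no base between the deposited V and J ends, and for the CAAG form it had 1. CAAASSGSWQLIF had a form with 1 added base and a form with 0 (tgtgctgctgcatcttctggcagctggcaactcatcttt), each in 7 samples. Of the 8, 4 used TRAJ12.

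The largest TRAV4 clonotype of each time point is the highest over 2 to 5 samples. At 1.5 months it was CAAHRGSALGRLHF with TRAJ18, with 1107 counts or 0.190% of functional counts (95% Wilson interval 0.179% to 0.201%). At 3 months it was a CAAG form with TRAJ12 at 0.622% (0.602% to 0.642%) and at 5 months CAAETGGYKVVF at 1.32% (1.29% to 1.35%). At 7 months it was the CAAG form with TRAJ12 at 2.02% (1.99% to 2.06%), in another nucleotide form than at 3 months. The later 3 used TRAJ12 and were named TRAV4N-4. That name was on 54.5% of all TRAV4 clonotypes above 1000 counts, and the clonotypes here were picked by size. The largest TRAV4 clonotype per sample took 0.147% to 0.190% at 1.5 months, 0.412% to 0.622% at 3 months, 1.08% and 1.32% at 5 months and 0.216% to 2.02% at 7 months. At 7 months its mean was 0.900% and its median 0.391%, both below the 2 values at 5 months.
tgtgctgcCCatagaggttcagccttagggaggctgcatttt was the nucleotide sequence at 1.5 months, with 2 added bases in capitals, and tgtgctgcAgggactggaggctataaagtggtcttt that at 3 months, with 1. The sequences at 5 and 7 months are those printed first for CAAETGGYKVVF and for the CAAG form.

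The number of TRAV4 clonotypes was lower at the later times. It was 506 and 442 at 1.5 months, 470, 432, 396 and 455 at 3 months, 389 and 331 at 5 months, and 313, 390, 356, 298 and 381 at 7 months. Every sample at 5 and 7 months lay below both samples at 1.5 months. The mean fell by 126 from 474.0 at 1.5 months to 347.6 at 7 months (-26.7%; exact permutation test against the largest difference among 3 comparisons, p = 0.00651). It fell by 114 to 360.0 at 5 months (p = 0.0348, exact) and stood at 438 at 3 months (difference -35.8, p = 0.571, exact; -67.8 to -3.75 with 1 sample left out). Adjusted over all 12 comparisons by time, p was 0.0781 at 7 months and 0.209 at 5 months, so no comparison passed. The clonotype number over all V genes was also lower at these times, with no test made of it. The mean number of functional clonotypes was 7247.5 at 1.5 months, 5108 at 5 months and 5643 at 7 months. The study's methods give a single number of sorted Treg cells for these libraries. How many of those cells carried a TRAV4 chain, and how much receptor RNA each held, cannot be told apart.

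The share of counts held by TRAV4 gave no called difference. It was 6.69% ± 0.866 at 1.5 months, 8.09% ± 0.419 at 3 months, 8.36% ± 0.652 at 5 months and 7.25% ± 1.79 at 7 months (exact permutation p = 0.449, 0.425 and 0.901 against 1.5 months). Mean CDR3 length and inserted bases gave no difference by time that passed either. As a description with no test, the inverse Simpson index within TRAV4, which is high where counts are spread evenly over many clonotypes, was 163 and 174 at 1.5 months, 62.7 to 104 at 3 months, 27.7 and 40.1 at 5 months and 13.9 to 120 at 7 months. The 7-month samples spanned the widest range.

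**Figure D5:**
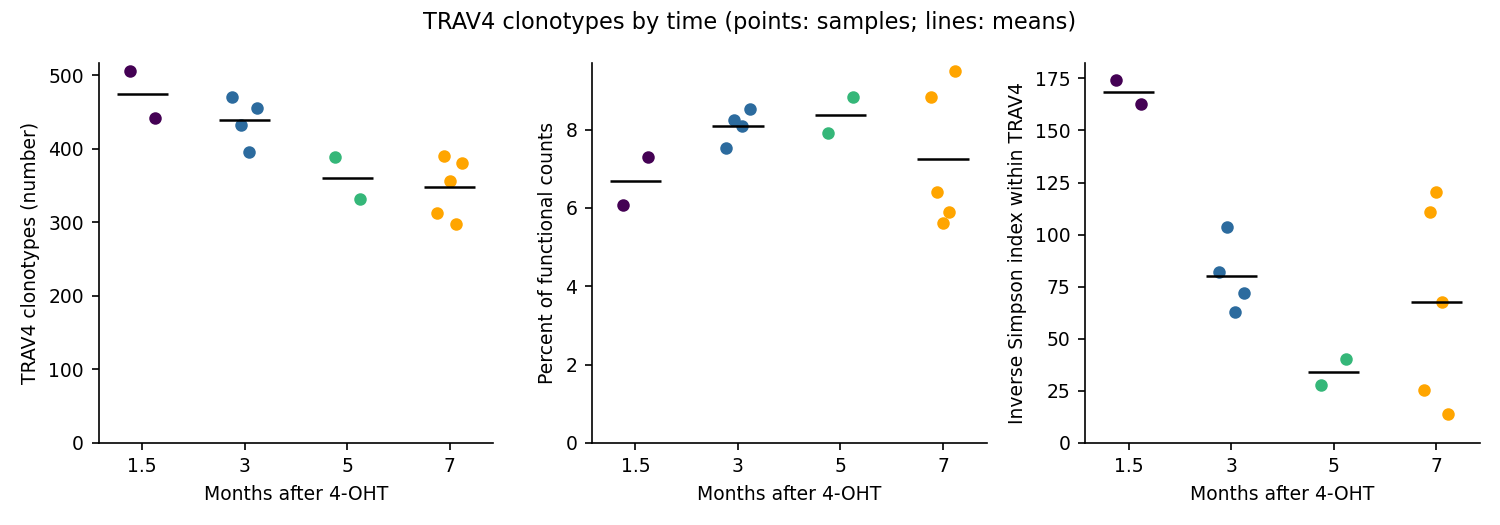
Points give each sample's number of TRAV4 clonotypes, the percent of functional counts they held and the inverse Simpson index within TRAV4, by months after 4-OHT, with lines at the group means. The clonotype number falls from a mean of 474.0 at 1.5 months to 347.6 at 7 months, and the percent of counts stays between 5.61% and 9.50%.

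As a share of all clonotypes, no difference by time was called for the family. Use of 25 V families was tested by edgeR on clonotype numbers, and TRAV4 was not called in any of 4 comparisons. Its log2 difference was 0.08 ± 0.072 (SE) at 3 months, 0.11 ± 0.086 at 5 months and -0.10 ± 0.071 at 7 months against 1.5 months, with adjusted p of 0.800, 0.936 and 0.552. Leaving out 1 sample moved these to 0.012 to 0.14, 0.044 to 0.19 and -0.16 to -0.032, none of them called. From 3 to 7 months it was -0.17 ± 0.058 (edgeR, unadjusted p = 0.00619, adjusted p = 0.155). With 1 sample left out this ran from -0.19 to -0.11 and was not called. Of the families, 4.0% were called at 3 and at 7 months against 1.5 months, and 0 in the other 2 comparisons. In these, 2 (5 against 1.5 months) and 1 (7 against 3 months, TRAV4 itself) had an unadjusted p under 0.05. Of 90 single V names, 5 of them TRAV4 names, 0 were called in any comparison. Unadjusted p was under 0.05 for 10, 8, 6 and 1 of the 90 at 3, 5 and 7 against 1.5 months and at 7 against 3 months. The largest TRAV4 value was -0.41 ± 0.21 for TRAV4D-3 at 7 against 1.5 months (adjusted p = 0.679, edgeR).

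Of 23 J genes tested within TRAV4 clonotypes, 1 (4.35%) was called in 1 of 4 comparisons. TRAJ15 was on 6.92% and 8.82% of TRAV4 clonotypes at 1.5 months, and on 4.15%, 4.87%, 5.90%, 4.36% and 4.72% at 7 months. All 5 later values lay below both earlier ones, and the log2 difference was -0.84 ± 0.26 (edgeR, adjusted p = 0.0456). In all other clonotypes TRAJ15 stood at 5.28% ± 0.660 and 5.56% ± 0.334 at the same times. The call was lost in 11 of 13 fits that left out 1 sample, and under 7 of the other alternatives. Where the call was lost, the log2 difference ran from -0.84 to -0.61 in the former and from -0.73 to -0.59 in the latter. In the other comparisons the gene with the smallest p was TRAJ40 at 3 against 1.5 months (log2 difference 0.75 ± 0.40, adjusted p = 0.739), TRAJ32 at 5 against 1.5 months (0.98 ± 0.63, adjusted p = 0.948) and TRAJ40 at 7 against 3 months (-0.89 ± 0.33, adjusted p = 0.129). None of these was called by edgeR. With 1 sample left out, TRAJ40 at 7 against 3 months ran from -1.05 to -0.55 and was not called.

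A few libraries shared more TRAV4 sequences than the rest. Of 78 pairs, 1.5 months replicate 1 and 3 months replicate 4 shared 74 TRAV4 nucleotide clonotypes (14.6% and 16.3% of each), and 3 months replicate 4 and 5 months replicate 1 shared 55 (12.1% and 14.1%). The median pair shared 27.5, and no other pair shared more than 49. All other clonotypes also recurred most in 2 of these libraries. Of their nucleotide sequences, 42.1% in 3 months replicate 4 and 38.7% in 5 months replicate 1 were found in another sample. The median over the 13 samples was 30.6%. Across libraries, 259 TRAV4 clonotypes were at least 100 times more abundant elsewhere. With such clonotypes removed, the counts of J genes and residues called against all other clonotypes stayed within 1.5 times, and the 6 paired differences kept their side of the threshold. The shares of sequences found in several samples were not recomputed in this way.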

How the data were processed

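TCRα cDNA of sorted Treg cells was amplified by 5′ RACE and sequenced by the authors, who assigned clonotypes with MiXCR against reference mouse receptor genes. Their methods then name VDJtools for discarding likely sequencing errors, small clonotypes close in sequence to a far larger one, and for removing non-functional clonotypes. By the stated error limits, 1 of 5159 functional TRAV4 clonotypes would still be discarded, and 0 of 672 non-functional ones. The deposited tables still held these non-functional clonotypes, which were set apart here. The deposited tables give, for each clonotype, counts (whole numbers, not normalized), their fraction of the library total, the CDR3, the V and J names and segment ends. Whether a count is a read or a molecule is not given in the sources used here, nor are batches. Nothing in the labels ties equal replicate numbers together or samples to separate mice, so p-values measure only the spread between samples. Samples were grouped by the labelled months after 4-OHT. All columns of per-sample values came from the samples' own tables.

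Shares were recomputed over functional clonotypes. Clonotype numbers per V family, V name, J gene or residue were tested with edgeR 4.0.16 (quasi-likelihood, TMM scaling, filterByExpr, Benjamini-Hochberg over all features) in R 4.3.3, fitting all 4 groups together for time, or the sample as a block for TRAV4 against the rest. Single measures were tested by exact permutation, over 540540 arrangements of the 13 samples for time and 8192 sign patterns for paired differences. Inserted bases are those between the deposited V and J ends. Sequence comparisons and positions used GENCODE annotation of GRCm38. The scripts were tested on simulated data. Alternatives were other scalings and filters, DESeq2 1.42.0, a replicate block and leaving out each sample. Named genes were all TRAV4 names, up to 5 higher and 5 lower J genes and 3 residues each way with the smallest adjusted p, the J genes called by time (or the 1 with the smallest p), the largest clonotype of each time and up to 8 CDR3s found in the most samples. The members and lists were chosen with earlier results of these data known.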

Additional observations from a re-analysis of the deposited data

Results flagged for a closer look

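Among 58 sets of 4 or 5 values searched for a sample far from its group, 4 held one, where chance gives about 1 in 20. In 3 months replicate 2 the median TRAV4 clone size was 102 counts, with the nearest of the group at 67.5. The mean clone size of all other clonotypes was also the highest of the group in this sample, at 153.5 counts. In the same sample 7.89% of TRAV4 clonotypes were non-functional, with the nearest at 12.3%. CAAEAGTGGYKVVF took 0.311% of functional counts in 7 months replicate 4, with the nearest sample of that group at 0.0944%. The CAAG form with TRAJ12 took 2.02% in 7 months replicate 5, with the nearest at 0.421%.

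Non-functional TRAV4 rearrangements, which most comparisons leave out, made up 11.5% ± 1.90 of TRAV4 clonotypes (SD, n = 13), from 7.89% to 14.5%. There were no control samples to set beside them. Over all samples 672 TRAV4 clonotypes were non-functional and 5159 functional. Of the other clonotypes, 11151 were non-functional and 73362 functional, with no test made of the difference.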

How the results depend on the processing

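Of 648 values recomputed under alternatives other than leaving out a sample, 592 kept their direction and side of the threshold. For TRAV4 against the rest, J genes higher in TRAV4 numbered 9 with DESeq2, and 11 were lower with TRAV4-4-DV10 counted as a member. In non-functional clonotypes alone, with trimmed-mean scaling, 11 J genes could be tested, and 0 were higher and 0 lower. TRAJ12 (-0.080) and TRAJ22 (-0.20) changed sign there. In the model of both sets, on library totals with a lower filter, they stood at 0.26 and 0.15. Scaling, filter and model changed together between these fits, so which of them moved the sign was not tested. With TRAV4-4-DV10 as a member TRAJ49 changed sign (0.32), TRAJ9, TRAJ17, TRAJ22 and TRAJ48 were no longer called, the difference in J bases was -0.0775 (p = 0.201, exact), and nucleotide clonotypes per CDR3 changed sign (-0.00329). Without DV genes in the rest the last was 0.00925 (p = 0.0925, exact). The cause was not tested. By time, J genes called at 7 against 1.5 months numbered 0 with library totals, DESeq2, no filter, at least 2 counts, non-functional clonotypes kept, cross-library clonotypes removed or TRAV4-4-DV10 as a member, and 2 with the replicate block. Leaving out 1 sample gave 0 to 1. For TRAJ15 the adjusted p then ran from 0.0299 to 0.775, the highest without 1.5 months replicate 2.

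The lower clonotype number at 5 months was -102 with amino-acid sequences as clonotypes (p = 0.0717), -0.398 on a log2 scale (p = 0.0571), and -114 with only the 2 groups compared (p = 0.333, the smallest 2 against 2 samples allow) or with the replicate block (p = 0.0868), all by exact permutation. Leaving out 1 sample gave -146 to -82 at 5 months (p = 0.0153 to 0.228) and -158.4 to -94.4 at 7 months (p = 0.00378 to 0.0742), exact. TRAV4D-3 minus TRAV4D-4 in the 5′ region ran from 1.03 to 2.72 and TRAV4-2 minus TRAV4D-4 from 2.37 to 3.97 percentage points, with exact p down to 0.0347 and 0.0308. In the 3′ region TRAV4D-3 minus TRAV4D-4 ran from -5.78 to -2.22 (exact p = 0.0508 to 0.341).

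Differences by time that were not called changed sign as follows. TRAV4 family use was -0.048 at 3 months with TRAV4-4-DV10 as a member and 0.032 at 7 months on summed counts. TRAV4N-4 was -0.0024 (3 months) and -0.071 (7 months) with the replicate block, -0.042 with non-functional clonotypes kept and -0.0027 with cross-library clonotypes removed (7 months). TRAV4-2 at 7 against 3 months was -0.0068 with DESeq2, -0.010 with no filter, -0.084 with at least 2 counts, -0.11 with non-functional clonotypes kept and -0.010 with cross-library clonotypes removed. With at least 2 counts, CDR3 length at 5 months was 0.0142, and inserted bases were -0.0288 (5 months) and 0.0161 (7 months). With amino-acid sequences as clonotypes, length at 3 months was -0.00428 and inserted bases at 7 months 8.65e-05. With TRAV4-4-DV10 as a member, the share of counts was -0.562 (3 months) and -0.250 (7 months), length -0.0163 (3 months) and 0.0283 (5 months), and inserted bases -0.00375 (5 months). With cross-library clonotypes removed, inserted bases at 7 months were 0.0209. Leaving out 1 sample gave -0.0557 to 1.17 for the share of counts at 7 months, -0.0735 to 0.0834, -0.0839 to 0.0730 and -0.0400 to 0.117 for length at 3, 5 and 7 months, and -0.0250 to 0.113 and -0.0593 to 0.0479 for inserted bases at 5 and 7 months. For single names it gave, at 3, 5 and 7 against 1.5 months, -0.047 to 0.42, -0.64 to 0.43 and -0.059 to 0.40 for TRAV4-2, and -0.41 to 0.94, -0.63 to 0.92 and -0.52 to 0.83 for TRAV4N-4. It gave -0.13 to 0.059 for TRAV4-2 and -0.36 to 0.13 for TRAV4N-4 at 7 against 3 months, -0.019 to 0.077 (3 months) and -0.078 to 0.073 (5 months) for TRAV4D-4, -0.27 to 0.024 for TRAV4D-3 (5 months), -0.25 to 0.10 for TRAV4-3 (7 months) and -0.71 to 1.93 for TRAJ32 (5 months).

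Whether the replicate numbers pair the samples is not given in the labels, and the correlations that follow cannot settle it. Same-numbered samples had a mean correlation of -0.0182 over V families, 0.0250 over V names and 0.134 over J genes of TRAV4 clonotypes, with 8 of 14 pairs above 0.1 in the last. Depth limits what is seen of rare clonotypes, and with 2 samples at 1.5 and 5 months small differences by time cannot be shown.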

Other observations

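Counts of rearrangements that mark other T cell types were low in all samples. TRAV11 with TRAJ18, the invariant chain of NKT cells, had 0 to 634 counts per library, TRAV1 with TRAJ33, that of MAIT cells, had 0 to 611, and rows naming a TRD gene had 91 to 492, beside 477052 to 882170 functional counts. TRAV4 CDR3s of over 20 bases between V and J were 6 in number, and 271 clonotypes (5.25%) had 6 or more inserted bases.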
